A study of Mus musculus with 31 samples.

Results

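The genes described here are 10 members of the insulin-like growth factor (IGF) system: the ligand *Igf1*, the receptors *Igf1r* and *Insr*, the adaptors *Irs1* and *Irs2*, and the binding proteins *Igfbp2*, *Igfbp3*, *Igfbp4*, *Igfbp5* and *Igfbp7*. All 28 probe sets that the platform annotation gives to these genes alone were taken, out of 45037 probe sets and 18193 named genes on the array. One more probe set detects sequence inside the *Igf1r* transcription unit that the study's own probe set classification calls intronic, and it was kept apart from the *Igf1r* mRNA probe sets. The genes are taken by family and not by a threshold on a measured value, though earlier results of these data were known when the family was chosen, and the intronic probe set was picked by the study from the *Crebbp*+/- FL HSC comparison itself.

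IGF1 is a secreted growth factor that binds the receptor tyrosine kinase IGF1R, and more weakly the related insulin receptor, which can pair with IGF1R in a hybrid receptor. The active receptors phosphorylate the adaptor proteins IRS1 and IRS2, which recruit PI3 kinase and so turn on AKT, a kinase that promotes growth and survival. The IGF binding proteins hold IGFs outside the cell and set how much ligand reaches a receptor, whereas IGFBP7 binds IGFs only weakly. In the mouse fetus the IGFs are made largely by mesenchymal cells and by the liver, the organ in which hematopoietic stem cells expand before birth.

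RNA levels were read on genome-wide Affymetrix expression arrays from 23 samples in 4 experiments, each of which set a mutant against its own WT. The first compared 2 *Crebbp*+/- with 2 *Crebbp*+/+ samples of hematopoietic stem cells from the fetal liver (FL HSCs) of strain C57BL/6, and the second 2 *Ep300*+/- with 2 *Ep300*+/+ FL HSC samples of the same strain. The third compared 4 *Cdkn1a*-/- with 3 *Cdkn1a*+/+ FL HSC samples of a B6/129Sv background, whose mutant and WT animals were separately purchased stocks and not littermates. The fourth compared *Crebbp*+/- with *Crebbp*+/+ mouse embryonic fibroblasts (MEFs) of C57BL/6, 1 embryo of each genotype at 14.5 days post coitus from each of 4 litters. *Crebbp* and *Ep300* encode the paired histone acetyltransferases CBP and p300, of which 1 allele was inactivated in every cell of the body, and *Cdkn1a* encodes the cell cycle inhibitor p21. FL HSCs were sorted as Sca-1+, Lin-, AA4.1+ and strongly c-Kit+ cells at the same age, the cells of 15 embryos went into each sample, and 12 ng of RNA was amplified before labelling. In the *Crebbp* and *Ep300* FL HSC experiments each sample was read on 2 arrays, which were averaged.

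All levels below are log2 values, so a difference of 1 is a doubling. They were normalized apart in the 4 experiments and are set side by side only within one. A probe set was tested where its highest sample reached log2(100), which is 6.64, and it was called where the adjusted p of limma's moderated test was under 0.05 and the fold change over 1.5. Between 11199 and 19522 probe sets per array reached that level. Of the stem cell markers on the array, 8 of 8 reached it in each FL HSC experiment and 3 of 8 in MEFs, where 10 of 10 stromal markers did. The inactivated gene itself was weakly informative in heterozygous FL HSCs. There 3 *Crebbp* probe sets changed by -0.42 to 0.07 in *Crebbp*+/- and *Ep300* by -0.10 in *Ep300*+/- samples. *Cdkn1a* changed by -1.66 in *Cdkn1a*-/- FL HSCs, with a confidence interval of -3.20 to -0.12. In *Crebbp*+/- MEFs all 4 *Crebbp* probe sets were lower, with changes of -1.22 to -0.60, or folds of 0.429 to 0.661. Their confidence intervals lay between -1.57 and -0.15 (limma, unadjusted p from 6.77e-05 to 0.0175, adjusted p from 0.417 to 0.658). None of these probe sets was called, and in MEFs no probe set of any gene was. Libraries stood apart in 2 experiments. *Cdkn1a* WT sample 3 was one, whose summed hepatocyte markers were at 16.38 against 8.66 to 11.70 in the 6 other samples of that experiment, with erythroid markers at 13.43 against 5.17 to 6.01. The other was the WT MEF of litter 1, the highest of the 8 MEF samples for 21.8% and the lowest for 30.7% of all probe sets tested, against 6.75% to 19.3% and 6.44% to 17.1% for the 7 other samples.

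The genes above the minimum level differed between the experiments, which were normalized apart and of which the FL HSC ones alone used amplified RNA. In the *Crebbp* and the *Ep300* FL HSC experiments, only *Igf1r*, *Insr* and *Igfbp4* reached it, with 6 and 7 of the 28 probe sets. These 2 experiments were filtered together, so that an *Igfbp4* probe set whose highest *Crebbp* sample was at 6.58 was tested in both, and each had 7 tested probe sets. In the *Cdkn1a* FL HSC experiment *Igf1* and, in 1 sample, *Igfbp5* joined them, with 15 of 28 probe sets. MEFs had 9 of the 10 genes and 21 of 28 probe sets above the minimum, all but *Irs2*, whose highest sample was at 6.52. *Irs1*, *Irs2*, *Igfbp2*, *Igfbp3* and *Igfbp7* were below the minimum in every FL HSC sample of all 3 experiments. Nearest to the minimum among those left out in FL HSCs was a second *Igf1r* probe set, at 6.40 in its highest *Crebbp* and 6.53 in its highest *Ep300* FL HSC sample.

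**Figure D1:**
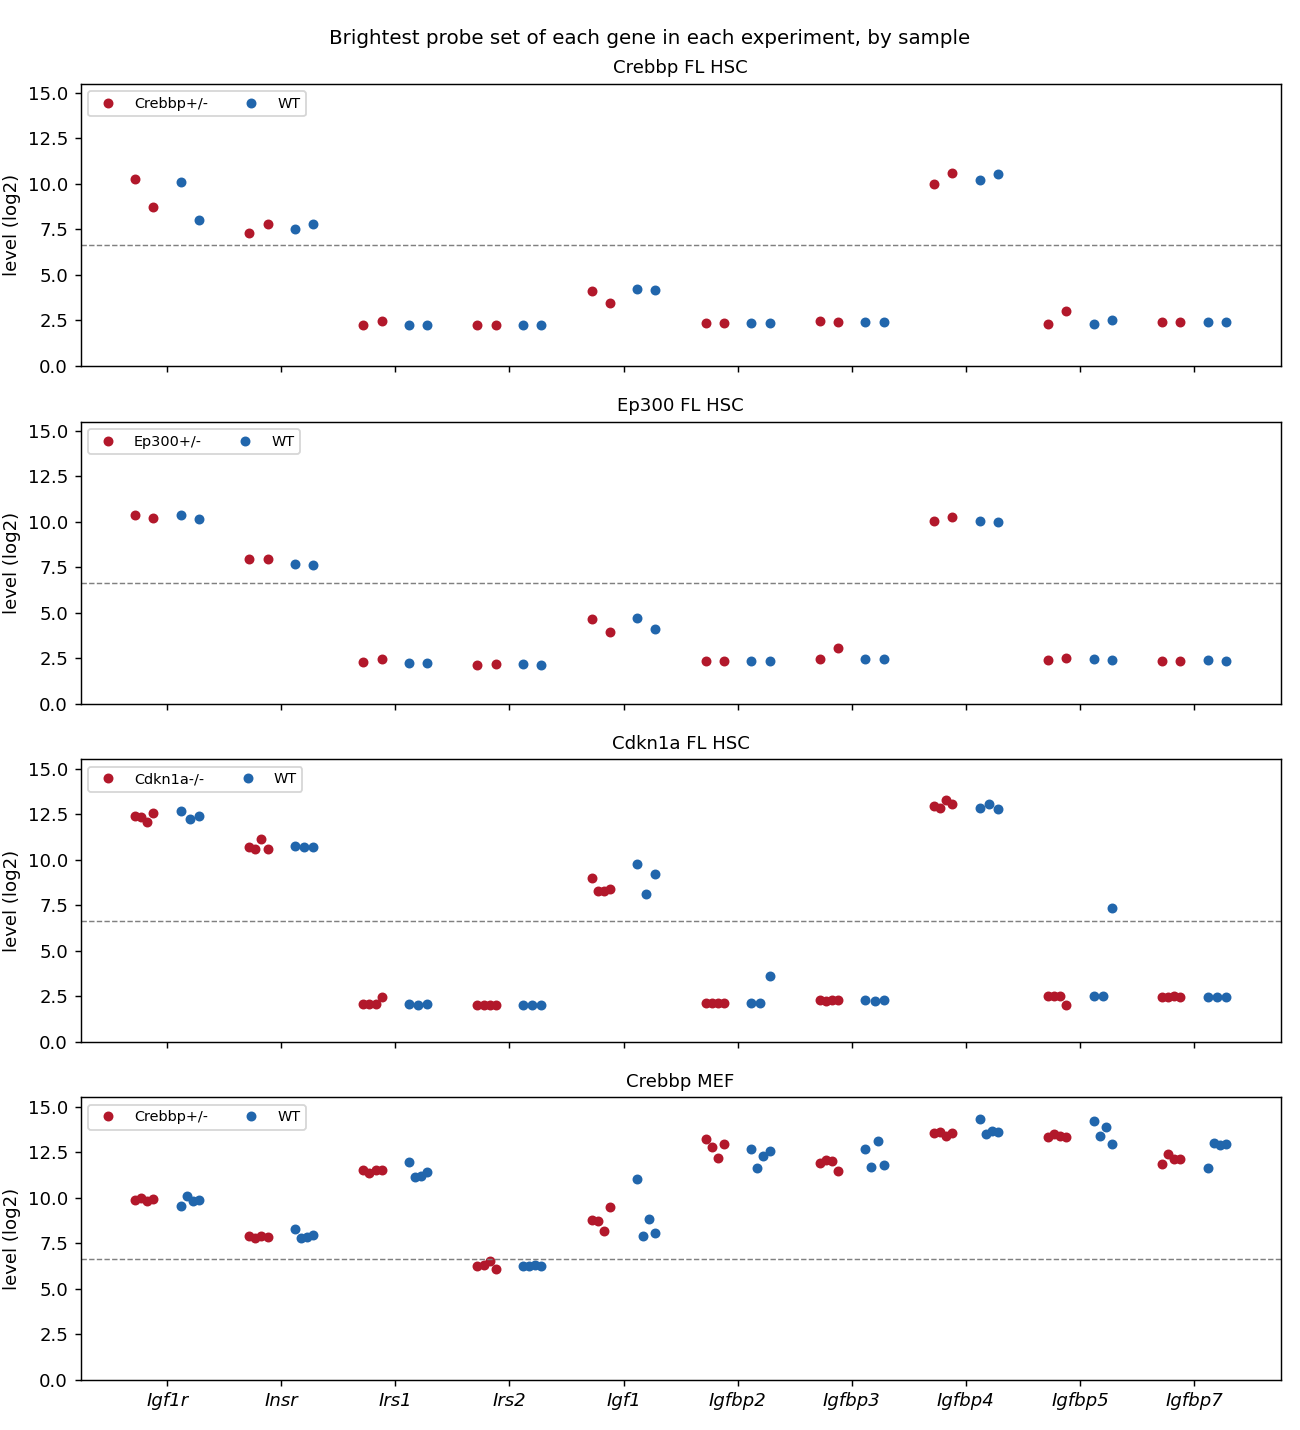
Log2 GCRMA level (vertical axis) of the brightest probe set of each of the 10 genes in each sample of the 4 experiments, with mutant samples as red and WT samples as blue points and the minimum level of 6.64 as a dashed line. *Igf1r*, *Insr* and *Igfbp4* lie above the line in all 4 experiments, *Irs1*, *Igfbp2*, *Igfbp3* and *Igfbp7* only in MEFs, and mutant and WT points of a gene lie close together in most panels; heights of different genes rest on different probes and are not compared.

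In *Crebbp*+/- FL HSCs, the question was whether loss of 1 *Crebbp* allele altered the receptor side of the system. None of the 7 probe sets tested was called, where 0.383% of all 13332 probe sets were. The 1 *Igf1r* mRNA probe set tested, the intronic one apart, was somewhat higher in the mutant, and *Insr* and *Igfbp4* were within 0.13 of WT. The median of the 7 changes was -0.06, with 5 below 0, as were 42.3% of all probe sets, and their adjusted p ran from 0.196 to 0.781 (limma). At an unadjusted p under 0.05 the count was 1 of 7, where 24.0% of all probe sets tested passed that mark.

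The brightest *Igf1r* mRNA probe set, and the only one above the minimum here, read 10.25 and 8.73 in *Crebbp*+/- FL HSCs, against 10.09 and 7.99 in WT. The second sample was the lower one in both genotypes, so the gap between pools was wider than the gap between genotypes, and the groups overlapped. The mutant was higher by 0.16 in the first pair and by 0.75 in the second. Their mean was 0.45, with a standard error of 0.167 and a 95% confidence interval of 0.02 to 0.88. It was not called (limma, adjusted p = 0.196). The error and interval rest on a spread shared with the *Ep300* pairs, which changed by only 0.00 and 0.08 on this probe set. From the 4 samples of this experiment alone, limma gave an adjusted p of 0.307. The mean change leaned on the second pair and on the first technical replicate. It was 0.75 without pair 1, 0.16 without pair 2, 0.75 from the first set of arrays and 0.15 from the second. The *Igf1r* mRNA probe sets below the minimum were not tested and did not all share this direction. The one nearest to it, at 5.56 to 6.40, changed by -0.08 and -0.14 in the 2 pairs. Another, at 3.48 to 4.24, changed by -0.24 and -0.52, and the rest, at 2.50 or lower, by 0.00 to 0.15. The summed hepatocyte markers differed between the same pools, at 8.13 and 8.69 in the mutant and 5.42 and 9.66 in WT, and their part in the change was not tested.

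The intronic *Igf1r* probe set moved the other way from the mRNA probe set tested. It read 7.37 and 7.19 in *Crebbp*+/- FL HSCs, against 8.64 and 8.73 in WT. Over the single arrays, which are 2 readings of each sample, it lay between 6.71 and 7.67 in the mutant and between 8.19 and 9.09 in WT. The 2 ranges did not overlap, as the study's choice of the probe set favours. The difference was -1.27 in the first pair and -1.54 in the second, a mean of -1.41 or a fold of 0.377. Since this probe set was listed by the study for its change in these very samples, the difference is a description and carries no test. It ranged from -0.99 on the first technical replicate to -1.83 on the second. Set against the mRNA probe set in the same samples, the intronic change was lower by 1.43 in pair 1 and by 2.29 in pair 2. In these sorted pools, fewer cells of one kind and less RNA per cell cannot be told apart. For a subset of genes the paper proposes less unspliced RNA in the mutant, without a matching fall in total mRNA. That was not tested here. The paper's own quantitative RT-PCR included *Igf1r*. Marker sums that split by genotype in the same samples were those of megakaryocytes, at 6.11 and 6.48 in the mutant against 7.18 and 7.16 in WT, with 1 of 5 markers above the minimum and *Pf4* and *Itga2b* below it. Endothelial markers, 2 of 8 above the minimum and *Cdh5* and *Kdr* below it, summed to 10.50 and 10.48 in the mutant and 10.82 and 10.73 in WT. Erythroid markers split the other way, at 5.08 and 5.16 in the mutant and 4.91 and 4.93 in WT, with 0 of 6 above the minimum. Stem cell markers lay at 13.70 to 13.73 in the mutant and 13.77 to 13.88 in WT. Such splits were common in this experiment, where 28.2% of all probe sets tested had groups that did not overlap. The part of these lists in the *Igf1r* values was not tested.

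**Figure D2:**
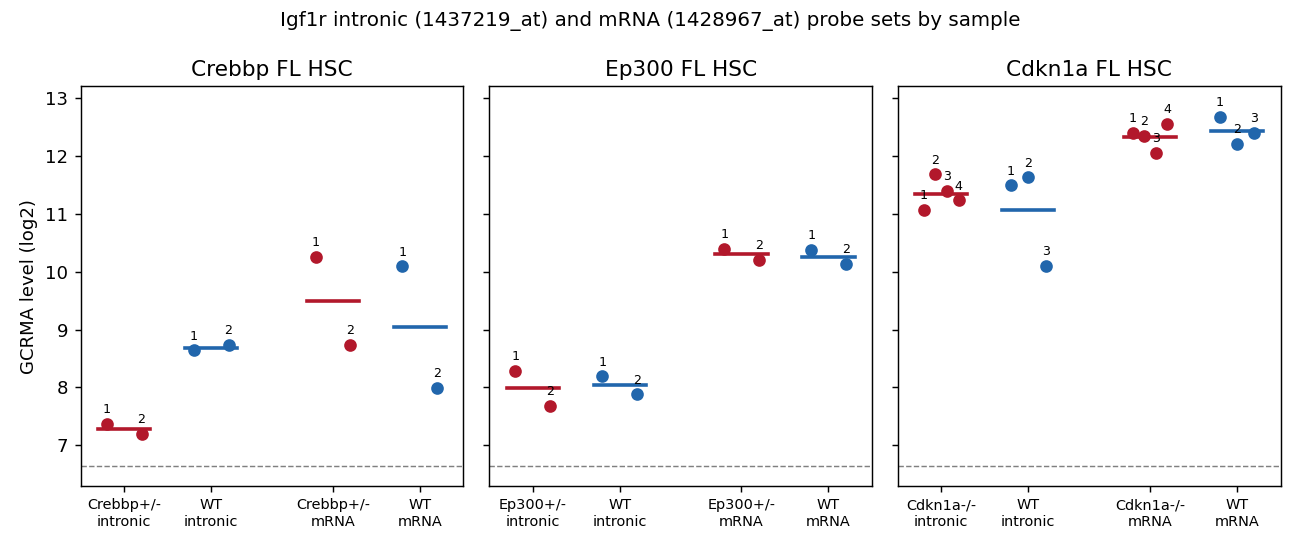
Log2 GCRMA level (vertical axis) of the intronic and the mRNA probe set of *Igf1r* in each FL HSC sample, mutant in red left of WT in blue, with bars for group means, digits for sample numbers and a dashed line at the minimum level of 6.64. In the *Crebbp* panel the intronic points of the mutant, at 7.37 and 7.19, lie below both WT points, at 8.64 and 8.73, while the mRNA points overlap; in the *Ep300* and *Cdkn1a* panels the points of both probe sets overlap.

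*Insr*, the insulin receptor, was at 7.28 and 7.81 in *Crebbp*+/- FL HSCs and at 7.51 and 7.80 in WT, a change of -0.11 with a 95% confidence interval of -0.41 to 0.18 (limma, adjusted p = 0.591). *Igfbp4*, a binding protein known to hold back IGF action until a protease cuts it, had 5 probe sets tested, 4 of them above the minimum in these samples. The brightest read 9.97 and 10.59 in the mutant and 10.20 and 10.53 in WT. The *Igfbp4* changes lay between -0.09 and 0.13, the 0.13 being that of the probe set below the minimum here, and their confidence intervals lay between -0.43 and 0.42.

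The ligand was low in these cells. All 4 *Igf1* probe sets stayed between 2.28 and 4.21 over the *Crebbp* FL HSC samples, below the minimum, and were not tested. In each of them both mutant samples were below both WT samples, as with 2.46 and 2.41 in *Crebbp*+/- against 4.12 and 2.92 in WT for the probe set with the largest gap. Levels this low rest largely on the background correction. Among the probe sets tested in this experiment, 28.2% had groups that did not overlap.

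In *Ep300*+/- FL HSCs the same 3 genes were above the minimum and none of their 7 probe sets was called, against 0.00% of all 13332 probe sets (limma; 570 of them, or 4.28%, and 0 of the 7 at an unadjusted p under 0.05). All 7 changes were small and positive, from 0.03 to 0.29 with a median of 0.09, where the median over all probe sets tested was -0.016 and 54.9% were below 0. All had an adjusted p of 1.00. The 7 probe sets are of 3 genes, with 5 of them of *Igfbp4*, and so are not separate observations.

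*Insr* stood at the top of that range. It read 7.94 and 7.95 in *Ep300*+/- FL HSCs, against 7.68 and 7.63 in WT. Its single arrays ran from 7.86 to 8.01 in the mutant and from 7.54 to 7.82 in WT, without overlap. The change of 0.29 had a standard error of 0.114 and an interval of -0.01 to 0.58 (limma, adjusted p = 1.00). Groups of samples did not overlap for 32.7% of all probe sets tested in this experiment, so such a gap was common.

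The *Igf1r* mRNA probe set read 10.39 and 10.21 in *Ep300*+/- FL HSCs, against 10.38 and 10.13 in WT, a change of 0.04 with an interval of -0.39 to 0.48. The intronic probe set read 8.29 and 7.68 in the mutant and 8.19 and 7.88 in WT. Its change of -0.05, with an interval of -0.40 to 0.30, was tested here because the study did not pick it on these samples (limma, adjusted p = 1.00). Its 2 technical replicates disagreed: the second array was above the first in all 4 samples, by 0.24 to 1.55 and by 0.99 on average. The change was 0.31 from the first arrays and -0.40 from the second. An offset of the same sign in all 4 samples occurred for 12.1% of all probe sets tested.

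Whether the effects of the 2 genes differed was tested in the joint fit of both experiments. No probe set of the 7 was called for a difference between the *Crebbp* and the *Ep300* effect, and 0.00% of all 13332 were (limma; 2025 of them, or 15.2%, and 0 of the 7 at an unadjusted p under 0.05). *Insr* differed most by p, with the *Crebbp* effect lower by 0.40 (interval -0.82 to 0.02, adjusted p = 0.343). For the *Igf1r* mRNA probe set tested, the *Crebbp* effect was higher by 0.41 (interval -0.21 to 1.02, adjusted p = 0.467). The intronic *Igf1r* effects differed by -1.36, which has no test because 1 of the 2 contrasts chose the probe set.

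In *Cdkn1a*-/- FL HSCs, 15 probe sets of 5 genes were tested and none was called, where 0.405% of all 20962 probe sets were (limma; 1 of the 15 and 7.29% of all at an unadjusted p under 0.05). The ligand *Igf1* was lower on average in the nulls on all 4 probe sets, while *Igf1r*, *Insr* and *Igfbp4* stayed within 0.23 of WT. Of the 15 probe sets, 1 of *Igf1* and the 1 of *Igfbp5* reached the minimum in WT samples alone. Their entry thus depended on the group in which they were high. The 1 of the 15 at an unadjusted p under 0.05 was that *Igf1* probe set. This count is therefore not set against the 7.29% of all probe sets that passed that mark.

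*Igf1* had the one probe set at an unadjusted p under 0.05, its dimmest, which is the one that passed through WT alone and whose p is therefore not read. It read 5.68, 5.09, 5.69 and 5.43 in *Cdkn1a*-/- FL HSCs, against 7.41, 5.61 and 6.78 in WT. All 4 nulls were below the minimum level and the second WT sample lay among them, so the groups overlapped. The change was -1.13. It ran from -0.72 without WT sample 1 to -1.62 without WT sample 2. The other 3 probe sets had the same order of WT samples, with the first WT highest and the second lowest. The brightest read 9.0, 8.28, 8.26 and 8.40 in the nulls and 9.75, 8.09 and 9.20 in WT, and its change of -0.53 had an interval of -1.50 to 0.44. Macrophage markers, in the same sample order, summed to 12.61, 13.36, 13.09 and 12.46 in the nulls and to 12.66, 13.49 and 14.40 in WT. Of these markers 6 of 8 were above the minimum, with *C1qa* and *Cd163* below it, and their part in the *Igf1* values was not tested.

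*Igfbp5* was the largest change of the set and rested on 1 library. Its tested probe set read 2.51, 2.51, 2.51 and 1.99 in *Cdkn1a*-/- FL HSCs, against 2.51, 2.51 and 7.33 in WT. The 7.33 belongs to WT sample 3, the one with hepatocyte and erythroid markers. It was also the sample through which the probe set passed the filter, so the change of -1.73 is given with no test, and it was -0.13 without that sample. *Igfbp2*, though under the minimum, showed the same sample apart, at 3.62 against 2.12 in the 6 others. *Igfbp1*, a binding protein made by hepatocytes and counted here with the wider pathway, was at 2.09 to 2.25 in the nulls and at 2.08 to 10.58 in WT, where 1 of 3 samples reached the minimum.

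The receptors were level between the genotypes. The brightest *Igf1r* mRNA probe set read 12.40, 12.34, 12.05 and 12.55 in *Cdkn1a*-/- FL HSCs, against 12.67, 12.21 and 12.40 in WT, a change of -0.10 with an interval of -0.48 to 0.29. Its other 2 tested probe sets changed by 0.21 and -0.08. The intronic probe set read 11.06, 11.68, 11.40 and 11.23 in the nulls and 11.49, 11.63 and 10.10 in WT. Its change of 0.27 (limma, adjusted p = 0.826) turned to -0.22 when the low WT sample 3 was left out. *Insr* was at 10.56 to 11.16 in the nulls and 10.69 to 10.77 in WT, a change of 0.03 with an interval of -0.35 to 0.41. The 6 *Igfbp4* probe sets changed by 0.08 to 0.23, and without WT sample 3 by -0.03 to 0.24.

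In *Crebbp*+/- MEFs, 21 probe sets of 9 genes were tested. None was called, in an experiment where 0.00% of all 15502 probe sets were (limma; 0 of the 21 and 1029 of all, or 6.64%, at an unadjusted p under 0.05), and the adjusted p of the members ran from 0.745 to 0.968. The receptors and *Irs1* were close to WT, whereas *Igf1* and the binding proteins *Igfbp3*, *Igfbp4*, *Igfbp5* and *Igfbp7* were lower on average and *Igfbp2* was higher. Of the 21 changes 18 were negative, with a median of -0.23, where 42.1% of all probe sets had a negative change and their median was 0.023. The 21 probe sets are of 9 genes, 6 of them of *Igfbp4*, and share the same 8 embryos.

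The litters went different ways. In litter 1, 18 of the 21 probe sets were lower in the mutant, where 45.4% of all probe sets were. It was 6 in litter 2 (54.8% of all), 17 in litter 3 (38.7%) and 12 in litter 4 (43.5%). Without litter 1, both embryos left out, the median change was -0.03, with 15 lower and 6 higher. The WT sample of litter 1 was the highest of all 8 samples for 13 of the 21 probe sets, of *Igf1*, *Igfbp4*, *Igfbp5*, *Insr* and *Irs1*, and the lowest for 2, against the 21.8% and 30.7% of all probe sets given above.

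*Igf1* showed the pattern most plainly. Its brightest probe set read 8.77, 8.69, 8.16 and 9.46 in *Crebbp*+/- MEFs of litters 1 to 4, against 11.03, 7.88, 8.84 and 8.05 in WT. The change within litters was -2.26, 0.82, -0.68 and 1.41, and the mean of -0.18 had an interval of -1.72 to 1.37 (limma, adjusted p = 0.961). It was 0.52 without litter 1, so its sign rests on that litter. The other 3 *Igf1* probe sets, at -0.22 to -0.15, turned positive without litter 1 too. Macrophage markers, 5 of 8 above the minimum and *C1qc*, *Cd68* and *Cd163* below it, were also summed. Over litters 1 to 4 the sums were 11.06, 11.13, 11.12 and 10.77 in the mutant and 11.32, 11.38, 11.65 and 11.44 in WT, and their part in the *Igf1* values was not tested.

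*Igfbp4* was lower on all 6 probe sets, by 0.24 to 0.59. The brightest read 13.57, 13.62, 13.39 and 13.52 in *Crebbp*+/- MEFs and 14.30, 13.48, 13.68 and 13.61 in WT. Only litter 1 gave a difference over 0.29 on this probe set, and the groups overlapped. The largest change, -0.59 on the dimmest of the 6, was negative in all 4 litters and had an interval of -1.18 to 0.00 (limma, adjusted p = 0.745). It was -0.32 without litter 1.

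*Igfbp7*, a secreted protein of the binding protein family, had the opposite litter 1. It read 11.86, 12.37, 12.14 and 12.14 in *Crebbp*+/- MEFs, against 11.61, 12.98, 12.91 and 12.96 in WT. The 3 WT samples of litters 2 to 4 lay above every mutant sample and that of litter 1 below all of them. The change was -0.49 with an interval of -0.98 to 0.00 (limma, adjusted p = 0.745), and -0.73 without litter 1 with an adjusted p of 0.144. Over the results leaving out 1 litter it ran from -0.73 to -0.38.

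*Igfbp3*, the main carrier of IGFs in adult serum, read 11.90, 12.06, 11.99 and 11.47 in *Crebbp*+/- MEFs, against 12.69, 11.70, 13.12 and 11.79 in WT. It was lower in 3 of 4 litters. The groups overlapped, with the mutant of litter 4 below every WT sample and the other mutants within the wide span of WT. The change was -0.47 on this probe set and -0.52 on the other one (limma, adjusted p = 0.760 for both). *Igfbp5*, which binds IGFs at the matrix around cells, changed by -0.28 and -0.23 on its 2 probe sets, with adjusted p of 0.777 and 0.829.

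*Igfbp2* was the one binding protein with a higher mean. It read 13.21, 12.75, 12.17 and 12.93 in *Crebbp*+/- MEFs, against 12.69, 11.65, 12.30 and 12.57 in WT. The change was positive in 3 of 4 litters and averaged 0.46, with an interval of -0.04 to 0.96 (limma, adjusted p = 0.753). It kept its sign whichever litter was left out, from 0.25 to 0.66. *Igfbp2* and *Igfbp5*, which went different ways on average here, sit next to each other in the mouse genome annotation.

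The receptors and adaptors of MEFs had the narrowest intervals. The brightest *Igf1r* probe set in MEFs read 9.88, 9.95, 9.83 and 9.90 in *Crebbp*+/- MEFs and 9.55, 10.06, 9.82 and 9.89 in WT, a change of 0.06 with an interval of -0.17 to 0.30. The other 2 *Igf1r* probe sets changed by -0.07 and -0.04. *Insr* changed by -0.12, with an interval of -0.37 to 0.14. *Irs1*, at 11.36 to 11.52 in the mutant and 11.15 to 11.94 in WT, changed by 0.05 with an interval of -0.30 to 0.40. The intronic *Igf1r* probe set was below the minimum in every MEF sample, between 3.17 and 4.75, while all 3 of these mRNA probe sets were above it.

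**Figure D3:**
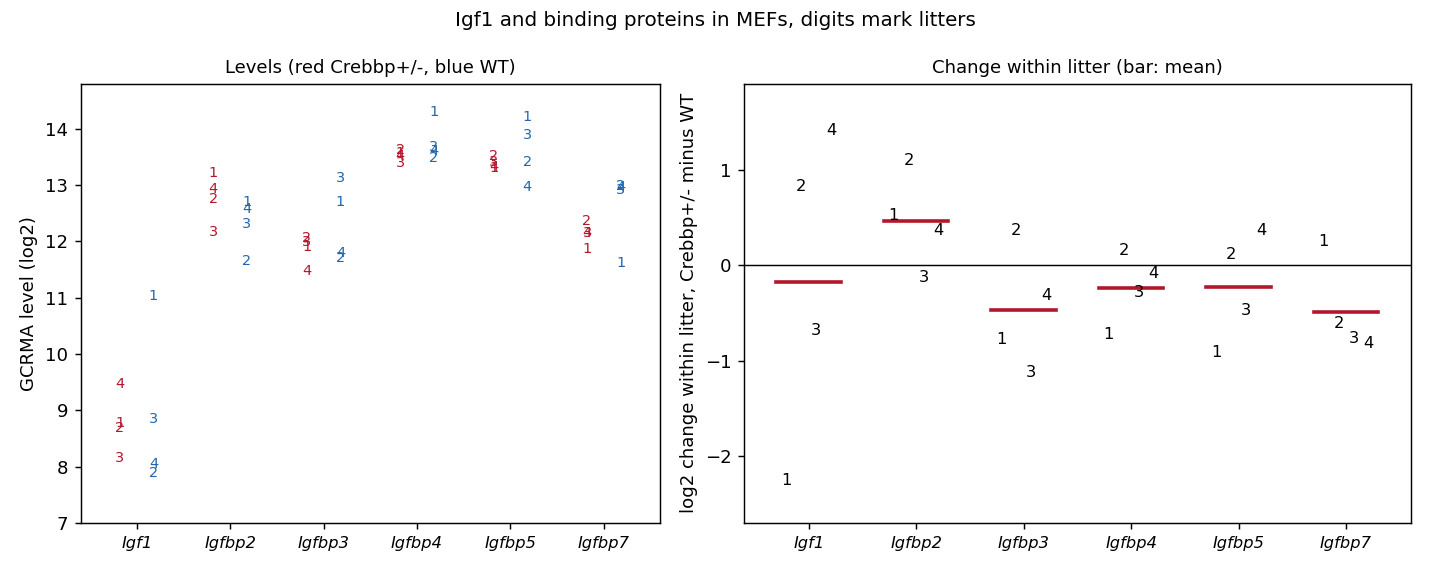
Left, log2 GCRMA level of the brightest probe set of *Igf1* and 5 binding proteins in MEFs, with red digits for *Crebbp*+/- and blue digits for WT embryos of litters 1 to 4. Right, the log2 change within each litter, *Crebbp*+/- minus WT, with a bar for the mean; litter 1 is the lowest for *Igf1* at -2.26 and the highest for *Igfbp7* at 0.25.

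The effect of *Crebbp* in FL HSCs was also set against its effect in MEFs, over the 6 member probe sets above the minimum in both. None was called, as with 0.00% of all 9846 probe sets (limma; 1 of the 6 and 15.7% of all at an unadjusted p under 0.05). That 1 was the *Igf1r* mRNA probe set tested in FL HSCs, whose mutant-minus-WT change was higher by 0.53 in FL HSCs than in MEFs (interval 0.11 to 0.94, adjusted p = 0.227). The interval assumes a spread shared by FL HSC pairs and MEF litters. In MEFs this probe set read 8.09, 8.17, 8.19 and 8.39 in the mutant and 8.31, 8.18, 8.20 and 8.45 in WT. The difference was 0.82 without FL HSC pair 1 and 0.23 without pair 2. For *Insr* it was 0.00, with an interval of -0.39 to 0.40.

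**Figure D4:**
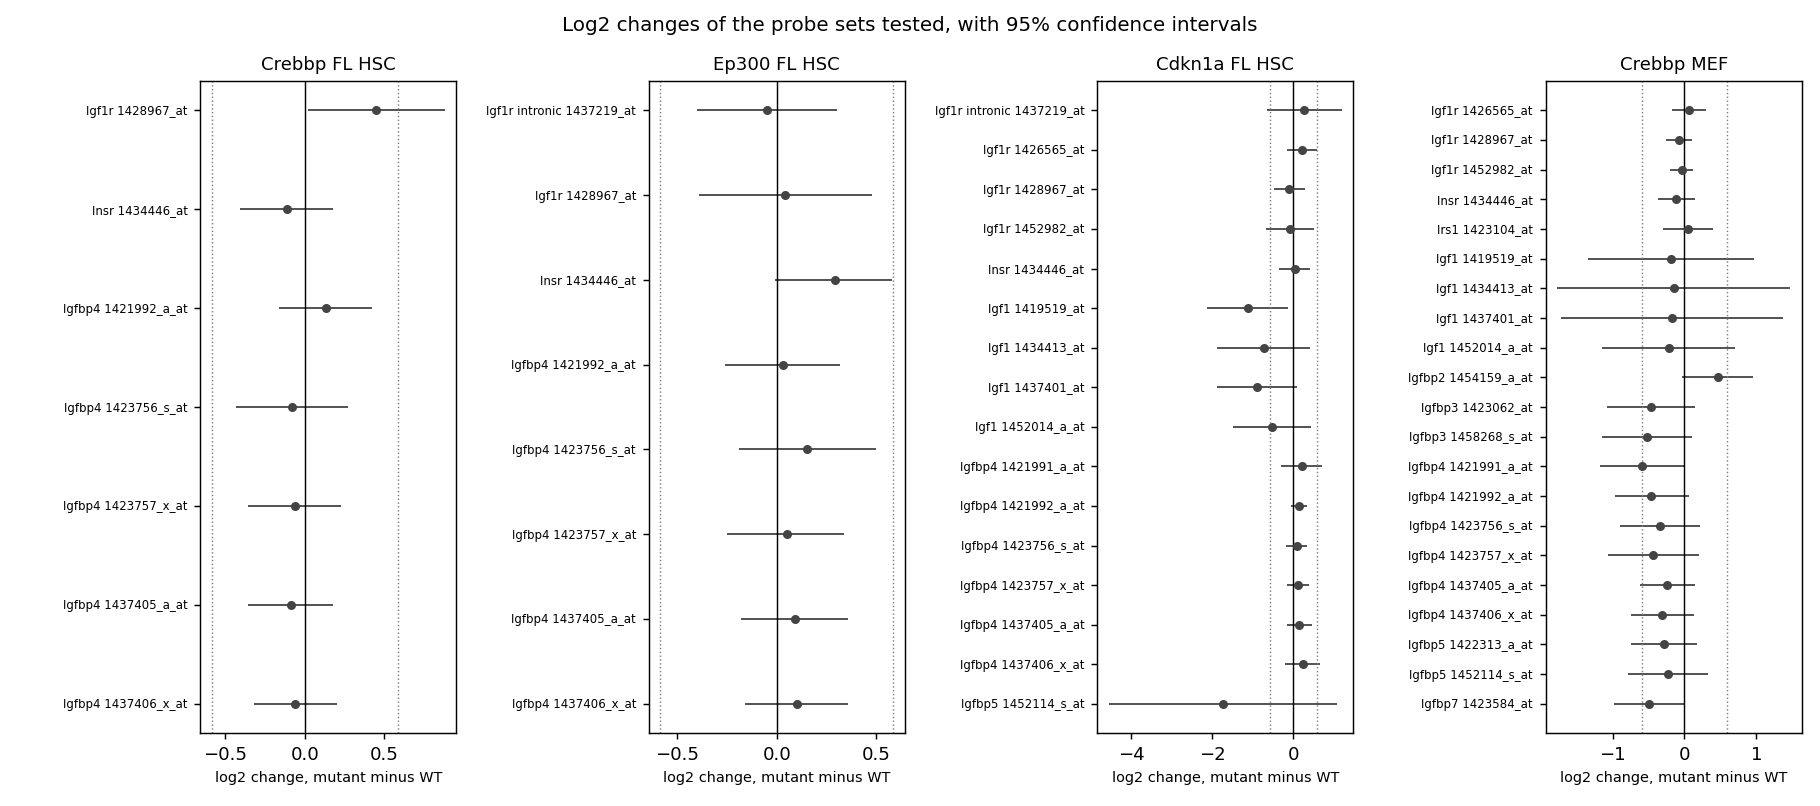
Log2 change, mutant minus WT (horizontal axis, a scale per panel), of each member probe set tested in the 4 comparisons, with 95% confidence intervals from limma and dotted lines at a fold of 1.5 either way. Intervals are widest for *Igfbp5* in the *Cdkn1a* panel and for *Igf1* in MEFs, and narrow for *Igf1r*, *Insr* and *Irs1* in MEFs. In the *Cdkn1a* panel *Igfbp5* and the lowest *Igf1* point passed the filter through WT alone, so their intervals are not read as tests. The intronic *Igf1r* probe set is left out of the *Crebbp* FL HSC panel, where it has no test.

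The rest of the pathway was followed through 58 further genes in lists of other ligands and receptors, other binding proteins and their proteases, adaptors and kinases, inhibitors, transcription factors and the *Igf2* mRNA binding proteins. Of these, 52 had a probe set, and 30 genes were tested in each heterozygous FL HSC comparison, 39 in the *Cdkn1a* one and 40 in MEFs. No gene was called in any comparison in either direction. By their brightest probe sets and at an unadjusted p under 0.05, 6 genes were higher and 3 lower in *Crebbp*+/- FL HSCs, where 14.5% of all probe sets were higher and 9.53% lower. The counts were 2 and 1 in *Ep300*+/- FL HSCs (2.15% and 2.13% of all), 1 and 0 in *Cdkn1a*-/- FL HSCs (4.19% and 3.10%) and 1 and 3 in *Crebbp*+/- MEFs (3.29% and 3.35%).

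The pathway gene with the smallest p in *Crebbp*+/- FL HSCs was *Igf2*, the fetal IGF ligand. It read 7.36 and 6.79 in *Crebbp*+/- FL HSCs, against 8.18 and 7.56 in WT. The change was -0.80 (limma, adjusted p = 0.0513), and the study lists this gene from these same samples, so its direction is not independent evidence. Next among brightest probe sets were *Pdpk1* and *Igf2r*. *Igf2r*, the receptor that takes IGF2 up for degradation, read 7.81 and 7.80 in the mutant and 8.42 and 8.24 in WT, a change of -0.53 (adjusted p = 0.0877). *Pdpk1*, the kinase that activates AKT, was at 8.69 and 8.36 in the mutant and 8.11 and 7.68 in WT, a change of 0.63 (adjusted p = 0.0830). The groups did not overlap in these 3 genes, as in 28.2% of all probe sets, but the genes were taken for their small p. Over all probe sets of a gene, *Igf2* was followed by *Crk*, an adaptor, and by *Igf2bp3*, which binds *Igf2* mRNA. The *Crk* probe set, near the minimum, read 6.83 and 5.54 in the mutant and 6.17 and 4.75 in WT, a change of 0.73 (limma, adjusted p = 0.0580), where the brightest *Crk* probe set changed by 0.18 (adjusted p = 0.539). The *Igf2bp3* probe set read 9.09 and 8.87 in the mutant and 8.56 and 7.93 in WT, a change of 0.74 (adjusted p = 0.0797), where the brightest of its 5 tested probe sets changed by 0.17 (adjusted p = 0.377).

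*Igf2r* was also the pathway gene with the smallest p in MEFs. It read 11.48, 11.79, 11.72 and 11.81 in *Crebbp*+/- MEFs, against 12.15, 12.04, 12.22 and 12.26 in WT, so that every mutant embryo was below every WT embryo, as the choice by p favours. Among all probe sets tested in MEFs, 3.57% had groups that did not overlap. The change was -0.47 (limma, adjusted p = 0.505). *Socs3*, a feedback inhibitor of receptor signalling, changed by 0.61 (adjusted p = 0.553) and the binding protein *Igfbp6*, which prefers IGF2, by -0.48 (adjusted p = 0.645). Neither gene had overlapping groups, though for *Igfbp6* the highest mutant was at 9.60 and the lowest WT at 9.61. Over all probe sets the third gene was *Rictor*, a subunit of an AKT kinase complex, with a change of 0.66 (adjusted p = 0.630) on one probe set and 0.17 (adjusted p = 0.773) on its brightest.

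In the other 2 comparisons the leading pathway genes were far from a call. In *Ep300*+/- FL HSCs a probe set of the kinase *Gsk3b* changed by -0.48, with 0.03 on its brightest, the adaptor *Gab1* changed by -0.41, the exchange factor *Sos2* by 0.35 and the inhibitor *Socs2* by 0.36, each with an adjusted p of 1.00. In *Cdkn1a*-/- FL HSCs *Socs2* changed by 0.72 (limma, adjusted p = 0.645), at 12.80, 12.52, 12.59 and 12.52 in the nulls and 12.52, 11.30 and 11.85 in WT. *Igf2bp1*, which binds *Igf2* mRNA, changed by 0.34 (adjusted p = 0.715) and *Pik3cb*, a catalytic subunit of PI3 kinase, by -0.52 (adjusted p = 0.720). Over all probe sets the smallest p were those of *Socs2* at 0.80 (adjusted p = 0.566), *Igf2bp1* at 0.49 and *Pik3ca*, another catalytic subunit, at 0.45 (adjusted p = 0.705 for both), while the brightest *Pik3ca* probe set changed by 0.00.

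To see which genes varied most like *Igf1r*, each sample was centred on its experiment and Pearson correlations were taken over all 23 samples against 23318 probe sets. The mRNA probe set tested in FL HSCs was most like *Galnt7* (r = 0.967), *Atf2* (0.95), *Dusp7* (0.945), *Gna13* (0.944) and *Baz2a* (0.944). The intronic probe set was most like *Rad18* (0.897), *Cblb* (0.896), *Meis1* (0.876), *Herc4* (0.859) and *Trio* (0.853). The 2 *Igf1r* probe sets did not vary together over the 23 samples, with r = -0.056 between them. These include the MEF samples, in all of which the intronic probe set was below the minimum. These are descriptions of shared samples, of which the 2 *Crebbp* FL HSC pools span the most on the mRNA probe set, and the probe sets of *Meis1* and *Trio* are, like the intronic one, on the study's list from the *Crebbp* FL HSC samples.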

How the data were processed

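Expression was measured on 31 arrays of 23 biological samples. The authors deposited log2 values from GCRMA, which corrects for background, normalizes by quantiles and summarizes each probe set, run apart on each of the 4 experiments. The version of GCRMA is not given in the sources used here. The labels give 1 RNA kit and amplification for FL HSCs; per the methods, MEF RNA was not amplified. From these values 64 control probe sets of 45101 were left out, technical replicates (r of 0.989 to 0.994) were combined as the mean of their log2 values, and probe sets with a highest sample of at least log2(100) were kept. Probe sets were named through the platform annotation (34958 with 1 gene symbol, 932 with several, 9160 with none). Tests used R 4.3.3 and limma 3.58.1: the *Crebbp* and *Ep300* FL HSC samples together with pairs as blocks, *Cdkn1a* without a block, MEFs with a block per litter, and p-values adjusted by Benjamini-Hochberg over all probe sets tested. The joint fit leaves 2 residual degrees of freedom, *Cdkn1a* 5 and MEF 3. A fit that joins 2 experiments assumes the same spread in both. The fit was tested on simulated data. Pairing was taken from the labels' litters in MEFs and from the study's paired design in FL HSCs, and deviations of same-numbered samples correlated by 0.70 and 0.40 in the *Crebbp* and *Ep300* FL HSCs and by 0.19 to 0.46 in MEFs. A leading probe set is the brightest of a gene over all samples of an experiment. Named genes are all 10 genes with every probe set, the inactivated genes, the 3 pathway genes of smallest p per comparison, both by their brightest probe sets and over all their probe sets (the rule names neither, and the second set was added after the first had been seen), and the 5 genes most like each *Igf1r* probe set; *Igfbp1*, *Pf4*, *Itga2b*, *Cdh5*, *Kdr*, *C1qa*, *C1qc*, *Cd68* and *Cd163* were named after their values were seen. Alternatives varied the filter, the centring, the block, the technical replicate, the samples and the test. The members and lists were chosen with earlier results of these data known. The number of samples limits the precision, and array depth has no count.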

Additional observations from a re-analysis of the deposited data

Results flagged for a closer look

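In 3 of the 58 groups of 4 samples examined, 1 sample lay far from the others relative to the range of its group, where chance gives about 1 in 20, or 2.90. The brightest *Igfbp7* probe set in the WT MEF of litter 1 was at 11.61, against 12.91 to 12.98 in the other 3 WT embryos. One of 6 *Igfbp4* probe sets in *Cdkn1a* null sample 1 was at 10.95, against 10.87 to 10.88 in the other nulls, a gap small on the log2 scale. The tested *Igfbp5* probe set in *Cdkn1a* null sample 4 was at 1.99, against 2.51 in the other nulls, all far below the minimum level.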

How the results depend on the processing

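No member was called under any alternative in any of the 6 comparisons. Of 615 tested alternative values for single probe sets, 575 kept their sign and 40 turned it, none of them called, with a size of at most 0.59. The smallest adjusted p among them was 0.0841, for the *Igf1r* mRNA between FL HSCs and MEFs without FL HSC pair 1. The untested *Igf1r* intronic difference in *Crebbp*+/- FL HSCs stayed between -1.83 and -0.99. Counts over all probe sets moved far more. What is called the methods' t-test below is a Student t-test with the study's limits on intensity, interquartile range, unadjusted p and fold. It was paired except in the *Cdkn1a* experiment, where it was unpaired, and it left out the study's filter on Absent calls. Its counts are therefore not those of the study's own procedure. Its limits left 3 member probe sets to test in *Crebbp*+/- and 0 in *Ep300*+/- FL HSCs, so no member could be called in the latter. The 51 calls of *Crebbp*+/- FL HSCs became 0 with no filter, with either technical replicate alone, with only the 4 samples, with no replicate block, without either pair (0 to 0) and in the methods' t-test after Benjamini-Hochberg, but 222 with a filter on the mean, 208 with centred samples and 199 in the methods' t-test. The 0 of *Ep300*+/- FL HSCs became 11 in the methods' t-test. The 85 of *Cdkn1a*-/- FL HSCs became 42 with no filter, 38 with a filter on the mean, 6 with a replicate block on numbers 1 to 3, 38 to 87 on leaving out 1 sample (52 without WT 1, 43, 38, 51 and 38 without nulls 1 to 4), 548 in the methods' t-test and 141 after Benjamini-Hochberg. There the samples share only a number, since deviations of same-numbered samples correlated by 0.25, 0.29 and -0.04. The 0 of MEFs became 2 with no replicate block, 0 to 2 on leaving out 1 litter and 61 in the methods' t-test. The 0 for the difference between FL HSCs and MEFs became 698 with no filter, 1 with no replicate block, and 0 to 21 on leaving out 1 pair or litter (18 without FL HSC pair 1, 1 without pair 2, 21 without litter 1). The cause was not tested. The replicate block changed no call of a member. With 2 pairs in each heterozygous FL HSC experiment, a probe set that was not called may still differ by any amount within its confidence interval.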
